A study of Gallus gallus with 106 samples.

Results

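Satellite cells isolated from Pectoralis major, the breast muscle, of wild-type (WT) broilers were compared after 36 h and after 24 h of differentiation at 20% O2 (normoxia). Each time had 6 biological libraries, chosen by the time and oxygen level in the labels, so the comparison covers 12 of the 53 biological libraries of the series. Both groups were primary cells that had been moved from growth medium to differentiation medium with horse serum and chicken embryo extract, and both stayed in that medium at 20% O2. The remaining libraries came from cells before the medium change (0 h, normoxia), from normoxia at 12 and 48 h, and from cells kept at 1% O2 (hypoxia) for 12, 24, 36 and 48 h. The assay was targeted RNA-seq: a panel of transcripts chosen by the study is amplified from cDNA with primers that span exon boundaries and then sequenced. The labels do not say whether biological replicates came from separate birds or cultures, so the p-values measure a spread between libraries, which may be technical. That spread was estimated over all 53 libraries of the 9 groups, and not over the 12 compared alone.

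Satellite cells are the stem cells of skeletal muscle. When growth factors are withdrawn they leave the cell cycle, switch from PAX7 and MYF5 to myogenin (MYOG), fuse into multinucleate myotubes and assemble sarcomeres. In culture these cells also release cytokines and growth factors, and part of the cells of a muscle preparation can take up lipid or follow a fibroblast or fat cell programme. The comparison asks which of these programmes still moved between 24 and 36 h of differentiation with oxygen plentiful.

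The total count per library was 171196 to 1103996 at 36 h and 200297 to 1116237 at 24 h. Levels are normalised read counts (CPM), which are compared between libraries for 1 gene; between genes they depend on the primers and are not read as expression levels. Satellite cell markers were present: 6 of 10 listed markers were in the panel, and their summed level was 14454 to 19583 CPM at 36 h and 16450.3 to 23332 CPM at 24 h. The 9 of 13 markers of differentiating muscle cells in the panel summed to 22222 to 23043 CPM at 36 h and 20731 to 22706 CPM at 24 h. Markers of other cell types were measured as well. Fibroblast markers (7 of 11 in the panel) summed to 24678 to 31173 CPM at 36 h and 25332 to 29278 CPM at 24 h, with COL1A2 under 5 CPM, and fat cell markers (5 of 7) to 18280.3 to 21749.8 CPM at 36 h and 16623 to 19359 CPM at 24 h. Smooth muscle and pericyte markers (4 of 7) summed to 11762 to 13559 CPM at 36 h and 12148 to 14050.5 CPM at 24 h. Endothelial markers (4 of 8) summed to 126 to 232 CPM at 36 h and 139 to 405 CPM at 24 h, with PECAM1 under 5 CPM, and both immune or blood markers in the panel (2 of 11) to 3.49 to 113 CPM at 36 h and 0 to 49.1 CPM at 24 h, with PTPRC under 5 CPM. No nerve or glia marker was in the panel (0 of 7). One library of each group, 36 h replicate 1 and 24 h replicate 6, stood apart in the mean level of 6 genes (MC5R, SSTR2, HRH2, THRSP, FBP2 and IRS1). This mean was 8.43 on the log2 CPM scale in that 36 h library, against a median of 6.35 over the 36 h group, and 7.67 in that 24 h library, against a median of 6.09 over the 24 h group. The 6 genes were taken because they vary together within groups of these same data. A gap in the sorted means, from 7.09 to 7.67, set 17 libraries of the series apart. The 24 h library lay at the upper edge of that gap and is the least distinct of the 17. Calls that were lost without these libraries are named below for the genes reported.

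Of 453 genes tested, 26 (5.74%) differed between 36 and 24 h at an adjusted p under 0.05 (edgeR quasi-likelihood test, Benjamini-Hochberg over all 453 genes). Of these, 18 (3.97%) were higher and 8 (1.77%) were lower at 36 h. In every one of the 26, all 6 libraries at 36 h deviated from the 24 h mean in the same direction, and in 14 of them the 2 groups did not overlap, against 15 (3.31%) of all tested genes. The 26 were selected on these same libraries, so both patterns follow largely from the selection and are no further support. How many of all tested genes had all 6 libraries on one side was not counted. At an edgeR unadjusted p under 0.05 there were 71 of the 453, the background for the unadjusted counts by list below. The median log2 change over all tested genes was 0.01, and the median size of a change was 0.11 with a median standard error (SE) of 0.14. Under 3000 CPM the median size was 0.19 and 23 of 295 genes were called. From 3000 to 6000 CPM it was 0.05 with 3 of 139 called, and over 6000 CPM 0.04 with 0 of 19. A small change in a gene over 3000 CPM, such as MYOD1, MYOG, COL1A1, FN1 or HIF1A, is therefore common at that level. The cause was not tested. Without the 2 libraries that stood apart, and those like them in the other groups, 19 genes were called, 17 of them among the 26. The calls lost included LPIN1 (edgeR adjusted p 0.088), MMP16 (0.08), PDGFRB (0.0825) and SFRP5 (0.112). EGR1, PVALB, MYOCD and ENSGALG00000025996 were lost as well, with values below.

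**Figure D1:**
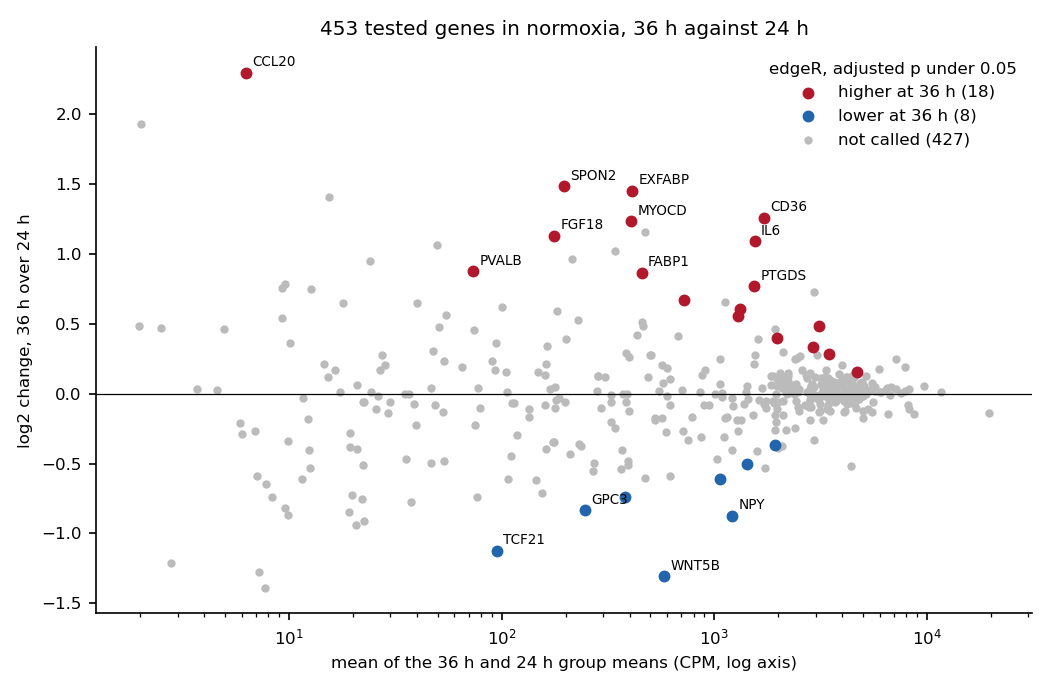
Log2 change of 36 h over 24 h in normoxia (y axis) against the mean CPM of both groups (x axis, log axis), which follows the number of reads behind the gene, for the 453 tested genes; each point is 1 gene. The 18 genes called higher are red and the 8 called lower are blue, and called genes with a change of more than 0.75 on the log2 scale are named. Changes of genes with few reads scatter more widely around 0 than those of genes with many.

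Among the genes that rose were the cytokine IL6, the fatty acid translocase CD36, the lipocalins EXFABP and PTGDS and the matrix protein SPON2. Among those that fell were the Wnt ligand WNT5B, the transcription factor TCF21 and the neuropeptide NPY. These 8 were called in every alternative fit and with each library left out. For some the margin was narrow: NPY had an edgeR adjusted p of 0.0498 with reference gene scaling. With technical replicate 2 alone PTGDS had an edgeR adjusted p of 0.0439 and TCF21 one of 0.0344. The smallest p-values below rest on the spread over all 9 groups. In the fit of the 2 groups the edgeR adjusted p was 0.00108 for EXFABP, 0.00108 for SPON2 and 0.0032 for WNT5B. The 7 tested myogenic regulatory factors did not pass in either direction, though MYF5 was called lower with technical replicate 1 alone. With 5.74% of all tested genes called, 0 of 7 is near that share. In these bulk samples a change in the share of cells that express a gene and a change of RNA per cell cannot be told apart.

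Interleukin 6 (IL6) is a cytokine that muscle cells release and that acts on satellite cells. Its lowest, median and highest levels were 1922, 2077 and 2437 CPM at 36 h, against 859, 918 and 1231 CPM at 24 h. Every library at 36 h was above every library at 24 h, and the fitted level was 2.13-fold higher (log2 change 1.09, SE 0.15, edgeR adjusted p 2.41e-07). Nearly all IL6 counts, 98.6% at 36 h and 98.8% at 24 h, came from 1 of its 2 transcripts in the panel. The chemokine CCL20, which attracts lymphocytes and dendritic cells in mammals, had 5.96, 9.41 and 16.3 CPM at 36 h and 0, 1.03 and 5.87 CPM at 24 h as its lowest, median and highest levels. These rest on 48 counts in all at 36 h and 8 counts at 24 h, where 2 libraries had none. CCL20 had the highest log2 change of the called genes, 2.30, but also the widest error (SE 0.65, edgeR adjusted p 0.0218). Its call was lost without 24 h replicate 3, 4 or 5 or without 36 h replicate 1 or 5 (adjusted p up to 0.0877) and with technical replicate 2 alone (0.355), and the log2 change ran from 1.54 to 3.21 over all fits.

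EXFABP, the extracellular fatty acid binding protein of chicken, is a secreted lipocalin known from differentiating cartilage and muscle cells and from inflammation. Its levels were 437, 591 and 859.7 CPM at 36 h (lowest, median, highest) and 152, 220.5 and 313 CPM at 24 h. The groups were well separated, with a 2.74-fold higher fitted level at 36 h (log2 change 1.45, SE 0.16, edgeR adjusted p 1.43e-09). PTGDS, a lipocalin that makes prostaglandin D2, had 1668, 1873 and 2509 CPM at 36 h, against 986, 1130.4 and 1324 CPM at 24 h. It too rose with no overlap between groups, by 0.77 on the log2 scale (SE 0.16, edgeR adjusted p 0.000997). Both genes had their highest library at 36 h in replicate 3 and their highest at 24 h in replicate 2. FGF18, FST, MSTN and PAX3, on other chromosomes, had the same pattern, so it is not particular to EXFABP and PTGDS. The pair are neighbours: in the deposited galGal6 coordinates EXFABP lies at chr17:865358-868425 and PTGDS at chr17:872551-874786, both on the minus strand and 4.12 kb apart. No other pair of called genes was closer than 598 kb, the distance between IL6 and NPY on chromosome 2. The 26 called genes lie on 12 chromosomes.

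Of the cytokine and chemokine list 14 genes were tested, and 3 (IL6, CCL20 and EXFABP) were higher and 0 were lower, where 3.97% of all genes were higher. The list includes EXFABP, which is a lipocalin and neither a cytokine nor a chemokine, and the CCL20 call rests on few counts. The median log2 change was 0.07 over the 14. The others did not pass; among them CCL5 averaged 16.8 ± 8.66 CPM at 36 h and 8.44 ± 6.41 CPM at 24 h (SD, n = 6 each; edgeR adjusted p 0.532). At an unadjusted p under 0.05 there were 7 of the 14, against 71 of all 453 tested genes. The summed immune and blood cell markers reached 113 CPM at 36 h and 49.1 CPM at 24 h, and their part in these changes was not tested.

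The lipid list, the longest with 40 genes tested, held 5 calls, all higher at 36 h, where 5.74% of all genes were called and 3.97% were higher. Its median log2 change was 0.08, against 0.01 over all genes. CD36, the fatty acid translocase that brings long-chain fatty acids into muscle and fat cells, had 2104, 2453 and 2699 CPM at 36 h, against 768, 989 and 1321 CPM at 24 h. The lowest library at 36 h exceeded the highest at 24 h by a wide margin, and the fitted level was 2.39-fold higher (log2 change 1.26, SE 0.14, edgeR adjusted p 1.43e-09). FABP1, which carries fatty acids inside cells, had 389, 616 and 751 CPM at 36 h and 243, 327 and 412 CPM at 24 h. Its groups overlapped slightly, with a log2 change of 0.87 (SE 0.18, edgeR adjusted p 0.00128). The FABP1 call was lost with technical replicate 2 alone (adjusted p 0.0792).

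PPARG, the nuclear receptor that directs fat cell differentiation and lipid storage, was 3242 ± 268 CPM at 36 h and 2568 ± 289 CPM at 24 h (SD, n = 6 each), a log2 change of 0.34 (edgeR adjusted p 0.00181). The PPARG call was lost with technical replicate 1 alone (adjusted p 0.176) and with reference gene scaling (0.0528). LPIN1, a phosphatidate phosphatase of triglyceride synthesis, was 1539 ± 241 CPM at 36 h and 1044 ± 294 CPM at 24 h, a log2 change of 0.56 (edgeR adjusted p 0.0411). LPIN1 is the least firm of the lipid calls, since it was kept in 3 of 12 fits with 1 library left out. It was lost without 24 h replicate 1, 2, 3, 4 or 6 or 36 h replicate 1, 2, 5 or 6 (adjusted p up to 0.15), and it was kept in 2 of 9 other settings (adjusted p up to 0.23, with reference gene scaling). FABP4, the fatty acid binding protein of fat cells, did not pass (log2 change 0.25, edgeR adjusted p 0.1). It is named after its values were seen, since its groups, 7192 to 8531 CPM at 36 h and 6076 to 7128 CPM at 24 h, did not overlap. The summed fat cell markers (ranges above) were on the whole higher at 36 h with overlap between groups, and their part in the lipid calls was not tested. Such a sum weights genes by their primers. Its largest rises in mean level were those of FABP4 (6575 CPM at 24 h, 7835 CPM at 36 h) and of PPARG, itself a lipid call. Like FABP4, the remaining fat cell markers tested, ADIPOQ, PLIN1 and LPL, did not pass, with log2 changes of 0.08, -0.76 and -0.00. Genes of fatty acid synthesis did not pass: FASN had a log2 change of 0.07 and SCD one of 0.13.

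DHCR7, a reductase of cholesterol synthesis, was in no fixed list and was called higher at 36 h without overlap. It had 1325, 1679 and 1774 CPM at 36 h and 787, 1037 and 1305 CPM at 24 h, a log2 change of 0.60 (SE 0.16, edgeR adjusted p 0.0153). The call was lost without 24 h replicate 4 (adjusted p 0.0617), with technical replicate 1 or 2 alone (0.0951 and 0.16) and with reference gene scaling (0.161).

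**Figure D2:**
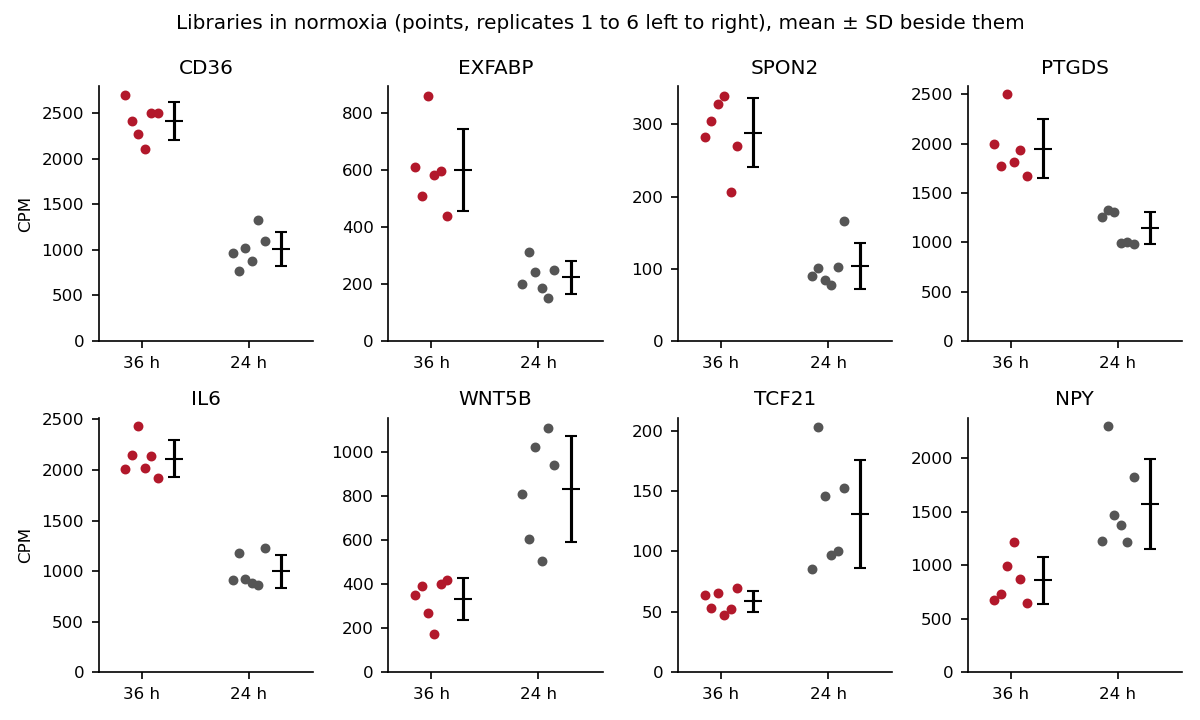
Level (CPM, y axis from 0) of 8 genes in each of the 6 libraries at 36 h (red, left) and at 24 h (grey, right) in normoxia; points are libraries and bars are the mean ± SD. These are the 8 genes called in every alternative fit and with each library left out; in all of them the groups do not overlap, with CD36, EXFABP, SPON2, PTGDS and IL6 higher and WNT5B, TCF21 and NPY lower at 36 h.

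SPON2, a secreted matrix protein of the spondin family, had 206, 293 and 339.7 CPM at 36 h and 77.6, 96.0 and 167 CPM at 24 h. The groups did not overlap, and the fitted level was 2.80-fold higher at 36 h (log2 change 1.49, SE 0.21, edgeR adjusted p 6.63e-07). The highest library at 24 h was replicate 6, which stood apart, and without the libraries that stood apart the log2 change was 1.65. GPC3, a glypican that holds growth factors at the cell surface, had 143, 181 and 199 CPM at 36 h and 245, 314 and 402 CPM at 24 h. It was lower at 36 h in all libraries, with a log2 change of -0.84 (SE 0.21, edgeR adjusted p 0.00898). The GPC3 call was lost with technical replicate 1 or 2 alone (adjusted p 0.176 and 0.0763). The fixed list of 24 tested matrix and fibroblast genes held these 2 calls, near the 5.74% of all tested genes. Its median log2 change was -0.0047. The collagens COL1A1 and COL3A1 and fibronectin (FN1) had log2 changes of -0.01, -0.02 and -0.00. MMP16, a membrane-bound matrix metalloproteinase in none of the lists, was 889.6 ± 126 CPM at 36 h and 559 ± 127 CPM at 24 h (SD, n = 6 each; log2 change 0.67, edgeR adjusted p 0.0249). Its call was lost without 24 h replicate 1, 4 or 6 or 36 h replicate 3, 5 or 6 (adjusted p up to 0.0828), and it was kept in 4 of 9 other settings (adjusted p up to 0.266, with reference gene scaling).

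FGF18, a fibroblast growth factor of the skeleton, had 187, 213 and 405 CPM at 36 h and 90.2, 96.2 and 185 CPM at 24 h. The groups did not overlap by a narrow margin, and each had 1 library well above the rest (log2 change 1.13, SE 0.28, edgeR adjusted p 0.00591). The FGF18 call was lost with technical replicate 2 alone (adjusted p 0.188) and with reference gene scaling (0.0717). PDGFRB, the platelet-derived growth factor receptor of pericytes and other mesenchymal cells, fell to 1172 ± 239 CPM at 36 h, against 1668 ± 253 CPM at 24 h (SD, n = 6 each; log2 change -0.50, edgeR adjusted p 0.0218). That call was lost without 24 h replicate 2, 3 or 5 or 36 h replicate 1 or 4 (adjusted p up to 0.0886), and it was kept in 5 of 9 other settings (adjusted p up to 0.288, with reference gene scaling). PDGFRB is also 1 of the 4 smooth muscle and pericyte markers in the panel, and the others, ACTA2, TAGLN and CNN1, did not pass. FGF18 and PDGFRB were the only calls among 8 genes of the FGF and PDGF families, where 5.74% of all tested genes were called. The related receptor PDGFRA had a log2 change of -0.17 (edgeR adjusted p 0.189).

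WNT5B is a Wnt ligand that mostly acts without beta-catenin. It had 173, 372 and 418 CPM at 36 h and 507, 875 and 1110.3 CPM at 24 h. All 36 h libraries were below all 24 h libraries, and WNT5B had the lowest log2 change of the called genes, -1.31 (SE 0.20, edgeR adjusted p 5.06e-06), a fitted level 2.47-fold higher at 24 h. It was the 1 call among 8 tested Wnt genes, whose median was -0.19, where 5.74% of all tested genes were called. WNT5A, its closest relative, had a log2 change of -0.08 and CTNNB1 (beta-catenin) one of 0.02, and neither passed. SFRP5, a secreted Wnt antagonist that was not in the fixed list, was 839.6 ± 248 CPM at 36 h and 1293 ± 417 CPM at 24 h (SD, n = 6 each), with overlapping groups (log2 change -0.61, edgeR adjusted p 0.0367). Its call was lost without 24 h replicate 2, 3 or 5 or 36 h replicate 1, 2 or 4 (adjusted p up to 0.19), and it was kept in 3 of 9 other settings (adjusted p up to 0.265, with reference gene scaling).

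NPY, neuropeptide Y, is a signal of neurons that also acts on blood vessels and fat cells. Its levels were 652, 803 and 1216 CPM at 36 h and 1217, 1422 and 2295 CPM at 24 h. The highest 36 h library, replicate 4, came within 1 CPM of the lowest 24 h library, replicate 5, so the groups only just failed to overlap (log2 change -0.87, SE 0.19, edgeR adjusted p 0.00181). It was the 1 call among 9 genes of vasoactive peptides and receptors, where 5.74% of all tested genes were called. TCF21, a transcription factor of fibroblast and fibro-adipogenic precursors, had 47.7, 58.5 and 69.7 CPM at 36 h and 85.7, 123 and 203 CPM at 24 h. It was lower in every 36 h library, with a log2 change of -1.12 (SE 0.22, edgeR adjusted p 0.000629). The 6 tested fibroblast markers held 0 calls by edgeR, near the 5.74% of all genes, and 0 by DESeq2, with 1 at an unadjusted p under 0.05.

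In the fixed list of contractile and structural genes, LDB3 and PVALB were called. LDB3, which anchors proteins at the Z-disc of the sarcomere, had 3083, 3618 and 3988 CPM at 36 h and 2085, 2613 and 3111 CPM at 24 h. The groups overlapped at 1 edge, and the log2 change was 0.48 (SE 0.12, edgeR adjusted p 0.0068). The LDB3 call was lost with technical replicate 2 alone (adjusted p 0.119) and with reference gene scaling (0.265). PVALB, parvalbumin, a calcium buffer of fast muscle fibres, was 95.1 ± 23.1 CPM at 36 h and 52.2 ± 12.2 CPM at 24 h (SD, n = 6 each; log2 change 0.87, edgeR adjusted p 0.0218). Its call was lost without 24 h replicate 1, 4 or 5 or 36 h replicate 4 (adjusted p up to 0.075), with technical replicate 2 alone (0.449), with reference gene scaling (0.218), in the fit of the 2 groups (0.073) and without the libraries that stood apart (0.0732). Its log2 change ran from 0.57 to 1.20 over all fits. LDB3 and PVALB were the calls among 14 tested contractile and structural genes, where 5.74% of all tested genes were called. Log2 changes in this list ran from -0.87 to 0.87, with a median of 0.01. MYH1B also had an edgeR unadjusted p under 0.05 and did not pass after adjustment. ACTA1 (skeletal actin), DES (desmin) and MYH1D (a fast myosin heavy chain) had log2 changes of 0.01, 0.01 and 0.03. These genes lie between 3000 and 6000 CPM, where only 3 of 139 tested genes were called. The fast myosin genes are close copies, and reads may have been divided among them in a way not given here. MYH1D was 4902 ± 183 CPM at 36 h and 4804 ± 240.1 CPM at 24 h, after 4085 ± 134 CPM at 12 h and 1297 ± 295 CPM at 0 h. MYOCD, a coactivator of serum response factor known from heart and smooth muscle, rose to 571 ± 204 CPM at 36 h, against 242 ± 81.8 CPM at 24 h. Its groups overlapped, with 244 CPM in the lowest 36 h library and 360.5 CPM in the highest 24 h library (log2 change 1.24, SE 0.32, edgeR adjusted p 0.00973). Without the libraries that stood apart its log2 change was 1.18 and its adjusted p 0.08, and the call was also lost with technical replicate 2 alone (0.0792) and with reference gene scaling (0.0808).

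None of the 7 tested myogenic regulatory factors was called by edgeR or by DESeq2 (0 of 7, median log2 change -0.04), and 1 (MYF5) had an unadjusted p under 0.05. By edgeR 5.74% of all tested genes were called, so 0 of 7 is near the share over all genes. MYOD1, which commits cells to muscle, had 3837, 4186 and 4584 CPM at 36 h and 4064, 4207 and 4673 CPM at 24 h. MYOG, which switches on the genes of the differentiated muscle cell, had 3928, 4857 and 5366 CPM at 36 h and 4280.5, 5055 and 5253 CPM at 24 h. Both sets of groups overlapped over most of their range, with log2 changes of -0.03 (SE 0.09) and -0.04 (SE 0.09) and an edgeR adjusted p of 0.999 each. MYF5, a factor of undifferentiated myoblasts, was 3594 ± 1329 CPM at 36 h and 5175 ± 1553 CPM at 24 h (log2 change -0.52, edgeR adjusted p 0.167). It was called with technical replicate 1 alone (log2 change -0.71, edgeR adjusted p 0.0344) and not with technical replicate 2 alone (-0.32, 0.756). MYF6 and MEF2C had log2 changes of 0.46 (SE 0.66) and -0.000162 (SE 0.27). PAX7, the defining factor of satellite cells, was 7967 ± 930.0 CPM at 36 h and 8434 ± 1272 CPM at 24 h, and PAX3 was 375 ± 115 CPM at 36 h and 575 ± 160.4 CPM at 24 h (log2 changes -0.08 and -0.61, edgeR adjusted p 0.938 and 0.148). No gene of satellite cell identity passed by edgeR (0 of 5, also near the 5.74% of all genes). Of these genes 3 had an unadjusted p under 0.05 (PAX3, CD34 and NCAM1), and DESeq2 called 1 of them, NCAM1 (adjusted p 0.00188).

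Brakes on myogenesis and growth factors of muscle likewise gave no call. MSTN (myostatin), which limits muscle growth, had a log2 change of -0.43 (SE 0.28, edgeR adjusted p 0.53), and its antagonist FST (follistatin) one of 0.17 (SE 0.08, adjusted p 0.29). IGF2, an insulin-like growth factor released by differentiating myoblasts, was 3677 ± 816 CPM at 36 h and 2216 ± 792 CPM at 24 h (SD, n = 6 each; log2 change 0.73, SE 0.25, edgeR adjusted p 0.0918). IGF1 had a log2 change of -0.40 (SE 0.27, adjusted p 0.53). Lists with 0 calls by edgeR and 0 by DESeq2 were IGF and insulin (11 genes tested, 3 at an unadjusted p under 0.05), TGF-beta and BMP (13, of which 1), inhibitors of myogenesis (4, of which 1), mitochondria and oxidation (17, of which 1), nuclear and hormone receptors (8, of which 1) and Notch (3, of which 1). The same held for glycolysis (9 genes), the HIF pathway (5), antioxidants (6), autophagy (5) and apoptosis (5), where 0 genes had an unadjusted p under 0.05. With 5.74% of all tested genes called by edgeR, 0 calls in lists this short is near that share and not particular to them.

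Proliferation genes gave 0 calls of 5 by edgeR and by DESeq2 and 2 at an unadjusted p under 0.05 (PCNA and E2F1). By edgeR 5.74% of all tested genes were called, so 0 of 5 is near that share. All 5 log2 changes were negative, from -0.59 to -0.0065, the last of them close to no change. The share of negative changes over all tested genes was not counted. The signs stayed negative when scaled by library totals, reference genes or DESeq2. Each of these scalings also lowered the median log2 change over all tested genes, so they are no check on the sign. PCNA, the sliding clamp of DNA replication, was 6272 ± 556 CPM at 36 h and 6935 ± 546 CPM at 24 h (log2 change -0.15, SE 0.06, edgeR adjusted p 0.17). CCND1 (cyclin D1) had a log2 change of -0.07 (SE 0.05), and the cell cycle inhibitor CDKN1A one of 0.13 (SE 0.14). The oxygen-regulated transcription factor HIF1A and its target VEGFA had log2 changes of -0.04 (SE 0.07) and 0.10 (SE 0.05).

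EGR1, a transcription factor induced within minutes by growth factor signals, had 3406, 3849 and 4120.2 CPM at 36 h and 2899, 3122 and 3382 CPM at 24 h. The groups were separate, though the log2 change was 0.29 (SE 0.07, edgeR adjusted p 0.00591). The EGR1 call was lost without the libraries that stood apart (adjusted p 0.0732), with technical replicate 1 or 2 alone (0.221 and 0.0763) and with reference gene scaling (0.115). It was the 1 call among 8 immediate early and feedback genes, where 5.74% of all tested genes were called. SESN1, a sestrin that restrains mTORC1, was 2241 ± 202 CPM at 36 h and 1702 ± 194 CPM at 24 h, a log2 change of 0.40 (edgeR adjusted p 0.00591). The SESN1 call was lost with technical replicate 1 or 2 alone (adjusted p 0.113 and 0.126). It was the 1 call among 4 stress genes, beside the same 5.74% of all tested genes. Among the genes that fell, ENSGALG00000025996 at chr6:34319708-34339712 matched no gene symbol. It was 285 ± 71.8 CPM at 36 h and 477 ± 145 CPM at 24 h (log2 change -0.74, edgeR adjusted p 0.041), and each of its 2 transcripts held close to the same share of its counts. Its call was lost without 24 h replicate 2, 3 or 6 or 36 h replicate 1, 2, 4, 5 or 6 (adjusted p up to 0.152), and it was kept in 3 of 9 other settings (adjusted p up to 0.31, without the libraries that stood apart). The nearest genes outside the threshold were NCAM1, a cell adhesion molecule of satellite cells (log2 change -0.26, edgeR adjusted p 0.0572), and CITED4, GPD1L, IGF2 and DUSP5 (0.0918 each).

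The same cells were also followed at 1% O2, and the test of the difference asked where the 24 to 36 h change was not the same at both oxygen levels. These changes share no library, but whether same-numbered libraries of the 2 oxygen levels are linked was not tested. In hypoxia 41 of 453 genes (9.05%) were called between 36 and 24 h, 14 higher and 27 lower. Of the 26 genes called in normoxia, 9 were called higher and 5 lower in hypoxia. These counts go by the direction in hypoxia alone and are not counts of agreement. IL6 and EGR1 rose in normoxia and had negative log2 changes in hypoxia, with values below. CD36 changed by 1.26 on the log2 scale in normoxia and 0.92 in hypoxia, FABP1 by 0.87 and 1.48, PPARG by 0.34 and 0.34, SPON2 by 1.49 and 2.04 and WNT5B by -1.31 and -0.93, and for none of these did the difference pass. NPY fell in normoxia and had a log2 change of 0.01 in hypoxia, but the difference of -0.88 did not pass after adjustment (SE 0.27, edgeR adjusted p 0.148).

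**Figure D3:**
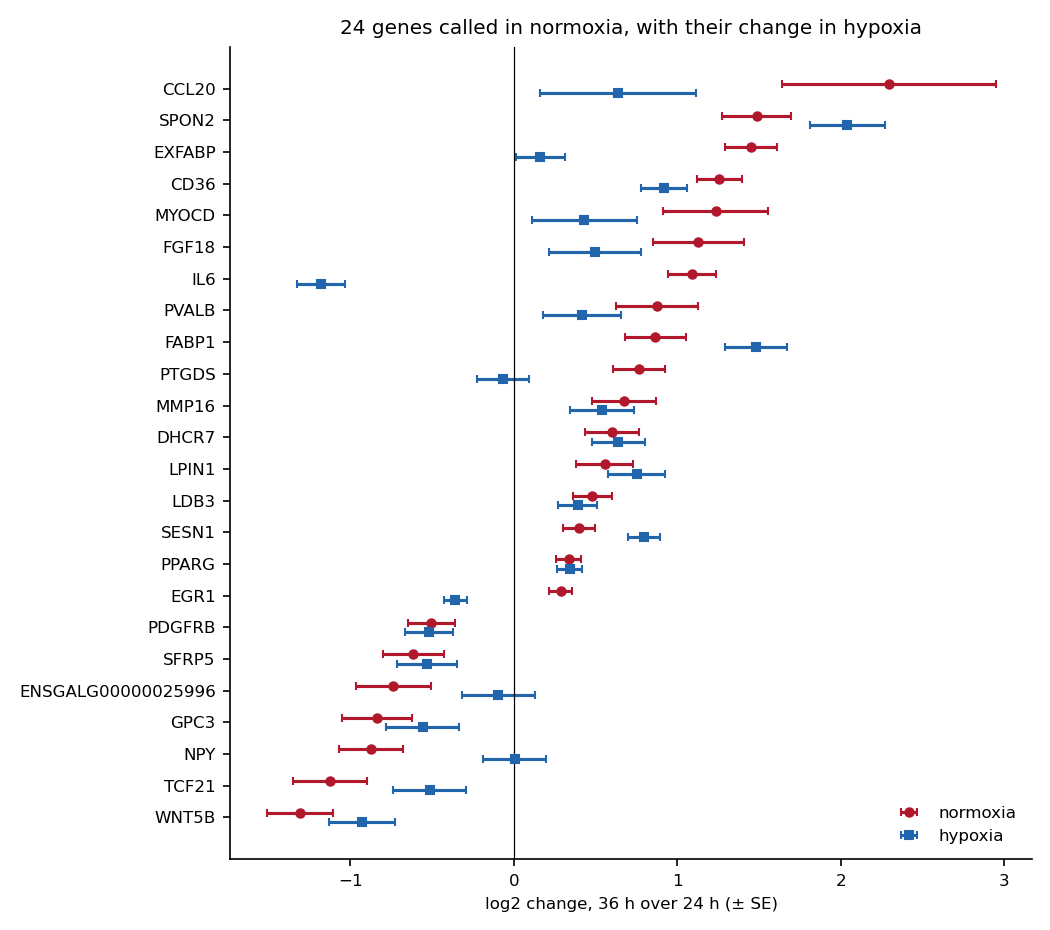
Log2 change of 36 h over 24 h (x axis, with SE bars) for 24 of the 26 genes called in normoxia, in normoxia (red circles, upper) and in hypoxia (blue squares, lower); genes run from the highest change at the top to the lowest at the bottom. IL6 and EGR1 lie to the right of 0 in normoxia and to the left of 0 in hypoxia, while CD36, PPARG, DHCR7 and PDGFRB lie on the same side in both.

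The difference passed for 6 of 453 genes (1.32%), and in all 6 the change was more positive in normoxia. IL6 stood first, with a log2 change of 1.09 in normoxia and -1.18 in hypoxia, a difference of 2.27 (SE 0.21, edgeR adjusted p 4.39e-12). Its means in normoxia were 2110.4 ± 181 CPM at 36 h and 998 ± 163 CPM at 24 h, and in hypoxia 1342 ± 330.0 CPM at 36 h and 3028 ± 568 CPM at 24 h (SD, n = 6 each). EGR1 followed the same pattern, with a log2 change of 0.29 in normoxia and -0.36 in hypoxia, a difference of 0.64 (SE 0.10, edgeR adjusted p 1.2e-05). DUSP5, a phosphatase that switches off ERK and is itself induced by ERK signalling, had a log2 change of 0.27 in normoxia, which did not pass, and of -0.52 in hypoxia. The difference was 0.79 (SE 0.14, edgeR adjusted p 4.6e-05). KLF6, an early response zinc finger factor, had 0.12 in normoxia, which did not pass, and -0.28 in hypoxia, with a difference of 0.40 (SE 0.09, edgeR adjusted p 0.00339). The KLF6 difference was lost in 3 of 9 other settings (adjusted p up to 0.818).

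The lipocalin neighbours made up the rest of the 6. EXFABP changed by 1.45 on the log2 scale in normoxia and by 0.16 in hypoxia, where it did not pass. The difference was 1.29 (SE 0.22, edgeR adjusted p 4.35e-05). Its level in normoxia was 600.1 ± 143 CPM at 36 h and 223 ± 57.3 CPM at 24 h, and in hypoxia 2605 ± 205 CPM at 36 h and 2329.5 ± 205 CPM at 24 h (SD, n = 6 each). At both times every normoxia library lay below every hypoxia library. PTGDS changed by 0.77 on the log2 scale in normoxia and -0.07 in hypoxia, a difference of 0.84 (SE 0.23, edgeR adjusted p 0.0403). This was the least firm of the 6. It was called in 13 of 24 fits with 1 library left out (adjusted p up to 0.128) and in 2 of 9 other settings. Among the settings that lost it was the fit without the libraries that stood apart. The call was lost without normoxia 24 h replicate 4, 5 or 6, normoxia 36 h replicate 1, 3 or 5, hypoxia 24 h replicate 2 or 3, or hypoxia 36 h replicate 3, 5 or 6.

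**Figure D4:**
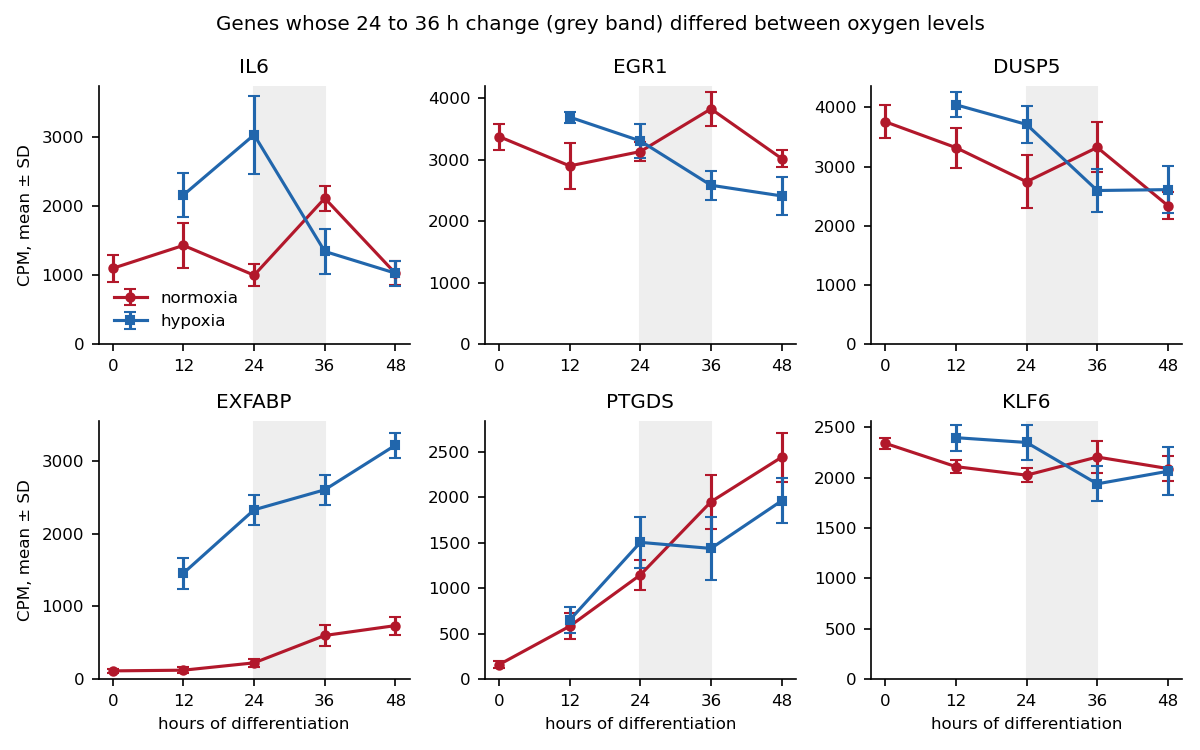
Mean level (CPM, y axis from 0, bars are SD) against hours of differentiation (x axis) in normoxia (red circles, 5 libraries at 0 h and 6 at each later time) and hypoxia (blue squares, 6 libraries each) for the 6 genes whose change between 24 and 36 h (grey band) differed between oxygen levels. In normoxia the means of IL6, EGR1 and DUSP5 are higher at 36 h than at 24 and 48 h, and in hypoxia they are lower at 36 h than at 24 h. EXFABP lies lower in normoxia at every shared time.

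Set in the whole normoxia course, the step from 24 to 36 h was small beside the step before it. In normoxia 24 h differed from 12 h in 175 genes (38.6%), and 48 h differed from 36 h in 5 genes (1.1%), all lower. These comparisons share libraries with the one at 24 to 36 h, and libraries that stood apart made up 4 of 6 at 12 h and 5 of 6 at 48 h, against 1 of 6 at 24 h and 1 of 6 at 36 h. Of the 26 genes, 8 were higher and 8 lower at 24 h than at 12 h, and by edgeR 0 were higher and 2 lower at 48 h than at 36 h (1 and 4 at an unadjusted p under 0.05). These counts go by the direction at each step alone. PTGDS, FABP1 and SPON2 were called higher at both steps. PTGDS averaged 159, 581, 1145, 1949.5 and 2439 CPM at 0, 12, 24, 36 and 48 h, and FABP1 42.9, 144, 322, 588 and 639 CPM. SPON2 followed with 17.5, 20.1, 104, 288 and 347 CPM. CD36 was not called between 24 and 12 h (edgeR adjusted p 0.175), with 791, 1181, 1008, 2413 and 2582 CPM over the same times.

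The 2 genes of the 26 that fell again after 36 h were IL6 and EGR1. IL6 averaged 1098, 1429, 998, 2110.4 and 1025 CPM at 0, 12, 24, 36 and 48 h. IL6 was highest in the 36 h group of the normoxia course, and its mean at 12 h lay above those at 0 and 24 h. Its log2 change was -1.05 from 36 to 48 h (edgeR adjusted p 1.95e-06), while in hypoxia it peaked at 24 h with 3028 CPM. EGR1 averaged 3378, 2901, 3134, 3828 and 3021 CPM, with a log2 change of -0.34 from 36 to 48 h (edgeR adjusted p 0.00218). DUSP5, FST and HSD17B7 were the other genes lower at 48 h. DHCR7 was lower at 24 h than at 12 h (log2 change -0.75) and higher at 36 h. The 24 h libraries enter both steps, so the 2 changes are not independent. WNT5B fell at both steps and averaged 1471, 1380.3, 833, 334 and 320.4 CPM over the 5 times. NPY averaged 2627, 2003, 1567, 857 and 889.6 CPM, and its step from 12 to 24 h did not pass (edgeR adjusted p 0.118).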

How the data were processed

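The authors deposited raw counts of 590 transcripts in 106 value columns; these hold 53 biological libraries, each sequenced as 2 technical replicates. Value columns that matched no sample numbered 0. Coordinates are as deposited, on galGal6 per the submitters' processing notes. Which aligner and counter were used is not given in the sources at hand. In all 1160 cells were blank and were read as 0. Of these, 1140 lay in 11 technical replicate 2 columns of the normoxia 36 h and 24 h groups, which hold 0 written zeros, so the blanks bear on the groups compared. Technical replicates were summed, as were 21 genes with 2 transcripts, leaving 569 genes. Of the names 525 matched a current symbol of a RefSeq gene table of assembly GRCg7b and 2 an older one; 31 Ensembl-only names and 11 others were kept as deposited.

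The test was edgeR's (4.0.16, R 4.3.3) quasi-likelihood F test with TMM factors; all 9 groups entered the fit, which left 44 residual degrees of freedom. The filter, filterByExpr over all groups, kept 453 genes and removed 116. A gene was called when its p, adjusted by Benjamini-Hochberg over those 453, was under 0.05. The common biological coefficient of variation was 26%. SE was computed as the size of the log2 change over the square root of F. The tests were 36 h against 24 h in normoxia and the difference of this change between normoxia and hypoxia. CPM used the library sizes of tested genes times their TMM factors. No molecular identifiers are named in the labels, and PCR copies of 1 molecule may be counted repeatedly. The procedure was tested on simulated data.

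The text names the 12 called genes at each end of the log2 changes, called members of the lists, a set of myogenic and other genes named whether called or not, and up to 8 genes of the difference between oxygen levels. Of the called genes 2 are not reported here. Other list members were named for their role or after their values were seen. The comparison, gene lists and rule were chosen with earlier results of these data known. Alternatives were DESeq2 1.42.0, 2 other scalings (library totals; 8 reference genes), omission of the filter, either technical replicate on its own, a replicate block by biological number, a fit limited to the compared groups, and fits without single libraries or without the 17 libraries that stood apart.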

Additional observations from a re-analysis of the deposited data

Results flagged for a closer look

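Of 90 groups examined (45 named genes at 36 and 24 h), 5 had 1 library far from the rest, and chance gives about 1 in 20 groups, so this number is near what chance gives. FGF18 had 405 CPM in 36 h replicate 3 and 185 CPM in 24 h replicate 2, each the highest of its group. SPON2 had 167 CPM in 24 h replicate 6, which was also the library of that group that stood apart in other genes. KLF6 had 1902 CPM in 36 h replicate 1, the lowest of its group, and this library stood apart too. PCNA had 7355 CPM in 36 h replicate 4, the library with the fewest counts of the series. The part of these libraries in the results was not tested beyond the fits that leave them out.

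The change between 24 and 36 h differed between normoxia and hypoxia, by edgeR's test of the difference, in 6 genes. The differences of log2 changes, normoxia minus hypoxia, were 2.27 for IL6, 1.29 for EXFABP, 0.84 for PTGDS, 0.79 for DUSP5, 0.64 for EGR1 and 0.40 for KLF6.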

How the results depend on the processing

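The count of 26 genes called between 36 and 24 h was 16 and 10 with technical replicate 1 or 2 alone and 15 with reference gene scaling (10 higher, 5 lower, 12 of them among the 26); under the 6 other settings it was 19 to 28. It ran from 20 to 33 with 1 library left out. The count of 6 for the difference between oxygen levels was 4 to 7, and 5 to 8 with 1 library left out. CD36, EXFABP, IL6, NPY, PTGDS, SPON2, TCF21 and WNT5B were called between 36 and 24 h in every setting and with each library left out. With reference gene scaling 14 calls were lost, among them DHCR7, FGF18, LDB3 and PPARG; the cause was not tested. KLF6 lost its difference between oxygen levels with reference gene scaling, with technical replicate 2 alone and in the fit of the compared groups. The 1143 gene values under alternatives include those of named genes that were not called and so could not lose a call. Of the 1143, 995 kept direction and call, 128 lost the call and 5 gained it. The sign turned in 15, all in genes that were not called. MEF2C was 0.00125 with DESeq2, 0.00825 with reference gene scaling, 0.0445 with technical replicate 2 alone, 0.00222 with the replicate block, 0.0011 without the libraries that stood apart and between -0.194 and 0.163 with 1 library left out. With technical replicate 2 alone MYH1D was -0.013, MYOD1 0.0207 and MYOG 0.022. With 1 library left out MYOG ran from -0.0738 to 0.00966, HIF1A from -0.0597 to 0.0166 and MYF6 from -0.0413 to 0.805.

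With the replicate block 27 genes were called, 26 of them the same. Normoxia libraries of the same number at 36 and 24 h correlated at 0.31, -0.18, 0.50, 0.37, 0.20 and -0.40 in their deviations from the group means, so the numbers were not taken to pair these times. Between oxygen levels this was not computed. There the lowest total had the same number in both: replicate 6 at 24 h (200297 in normoxia, 204271 in hypoxia) and replicate 4 at 36 h (171196 and 235311). Other totals went together as well. At 24 h the next lowest was replicate 2 in both (221400 and 251537) and the highest was replicate 3 in both (1116237 and 1325157). A link between same-numbered libraries of the 2 oxygen levels was not tested. The test of the difference treated them as independent, and the replicate block ran across all times. The labels name no sequencing or harvest batch, so a batch that ran with time cannot be told apart from time. Counts limit the low genes, CCL20 above all.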

Other observations

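Of the 17 tested genes with a log2 change of at least 1 in either direction, 9 were called and 8 were not. Those that were not called had wide errors. SLC25A34, a mitochondrial carrier, averaged 645 ± 638 CPM at 36 h and 297 ± 296 CPM at 24 h (SD, n = 6 each; log2 change 1.16, SE 0.71, edgeR adjusted p 0.507). Without the libraries that stood apart its log2 change was 1.11 (SE 0.26, adjusted p 0.00893). Those libraries were picked on these same data, so the smaller error of SLC25A34 without them is not independent of that choice. IRS1, BMP15 and HOXC9 had log2 changes of 1.41, 1.02 and 1.06 over all libraries and of 0.79, 0.63 and 0.65 without those libraries, and passed in neither case. IRS1 is itself among the genes by which those libraries were picked, so its change without them is not independent of that choice. CD34, a surface marker of progenitor cells, averaged 4.05 CPM at 36 h and 11.4 CPM at 24 h (log2 change -1.39, SE 0.56, edgeR adjusted p 0.17).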
